A study of Homo sapiens with 6 samples.

Results

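The genes described here are 55 genes of DNA replication: the factors that load and fire the replicative helicase, the enzymes of the fork, the enzymes that supply deoxynucleotides, and a pair of E2F transcription factors that drive many of them. They were taken by gene symbol from the deposited gene table, where all 55 were found among 17579 genes. All 55 also passed the filter on low counts, as 55 of 13138 genes tested. The samples were RNA-seq libraries of LP-1, an established line of human multiple myeloma cells, in 2 groups of 3. Every culture had been infected with a virus carrying a guide RNA and grown with fetal bovine serum. In the control group the guide had no target (the sample titles call it a vector). In the other group it was directed at AURKA, which encodes Aurora A, a kinase of mitosis, and the genotype is labelled Aurora A-KO. The labels do not say whether the AURKA-guide cells were a pool or 1 clone, how Cas9 was supplied, or whether the replicates were separate cultures, so the p-values speak only of the spread among these 6 samples, which could be technical. C1, C2 and C3 stand for the control replicates, and A1, A2 and A3 for those with the AURKA guide.

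Replication origins are prepared in G1 phase, when the origin recognition complex (ORC) together with CDC6 and CDT1 loads the ring-shaped MCM helicase onto DNA, a step called licensing that geminin (GMNN) blocks once S phase has begun. In S phase the kinase CDC7 with its activator DBF4, and factors including CDC45, GINS and MCM10, turn the loaded rings into active helicases, and polymerases, the sliding clamp PCNA and its loader RFC copy the strands. Many of these genes are transcribed in a wave at the G1 to S boundary under E2F factors, so their RNA is commonly used as a sign of S phase. In a bulk sample, a different share of cells in S phase and a different amount of RNA per cell cannot be told apart.

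The letters to which E2F factors bind were common around the starts of these genes. Promoters from RefSeq (GRCh38.p14; 250 bases before to 50 after each start) were matched for 49 of the 55 genes and searched on both strands for TTTCCCGC, TTTGGCGC, TTTCGCGC and TTTGCCGC. At least 1 of these stood in the promoters of 24 of the 49 genes (48.98%), against 1090 of 27305 genes with a promoter (3.99%). The latter were not limited to genes expressed in LP-1. Some genes have several listed starts. Among genes with 1 listed start the shares were 19 of 38 (50%) and 3.18%. The 4 MCM subunits with a matched promoter, MCM2, MCM3, MCM6 and MCM7, each held at least 2 matches. Their sequences are shown because the MCM genes carry the pattern described below, and that of WDHD1, a fork protein with the highest fold change of the 55, because it holds none. Each runs 5′ to 3′ on the gene's strand from 250 bases before the start to 20 after it, with E2F letters on either strand in capitals. The positions are chr3:127598161-127598430 (plus strand) for MCM2, chr6:52284723-52284992 (minus) for MCM3, chr2:135876424-135876693 (minus) for MCM6, chr7:100101378-100101647 (minus) for MCM7 and chr14:55027080-55027349 (minus) for WDHD1.
MCM2: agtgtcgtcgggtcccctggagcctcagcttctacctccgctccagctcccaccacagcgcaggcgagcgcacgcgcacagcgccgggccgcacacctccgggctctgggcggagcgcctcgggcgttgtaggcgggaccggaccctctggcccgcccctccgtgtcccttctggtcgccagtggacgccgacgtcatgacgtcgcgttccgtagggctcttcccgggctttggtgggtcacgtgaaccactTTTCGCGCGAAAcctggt
MCM3: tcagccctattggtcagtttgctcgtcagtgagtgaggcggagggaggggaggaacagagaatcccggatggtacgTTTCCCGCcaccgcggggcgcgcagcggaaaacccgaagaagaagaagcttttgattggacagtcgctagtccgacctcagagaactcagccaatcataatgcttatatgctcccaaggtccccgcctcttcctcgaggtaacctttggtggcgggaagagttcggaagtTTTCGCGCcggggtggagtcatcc
MCM6: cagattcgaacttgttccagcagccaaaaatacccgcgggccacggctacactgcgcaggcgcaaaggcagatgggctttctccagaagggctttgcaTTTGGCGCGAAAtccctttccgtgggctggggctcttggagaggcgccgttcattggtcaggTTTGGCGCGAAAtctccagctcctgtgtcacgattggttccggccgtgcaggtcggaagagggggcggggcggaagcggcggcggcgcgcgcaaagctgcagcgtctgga
MCM7: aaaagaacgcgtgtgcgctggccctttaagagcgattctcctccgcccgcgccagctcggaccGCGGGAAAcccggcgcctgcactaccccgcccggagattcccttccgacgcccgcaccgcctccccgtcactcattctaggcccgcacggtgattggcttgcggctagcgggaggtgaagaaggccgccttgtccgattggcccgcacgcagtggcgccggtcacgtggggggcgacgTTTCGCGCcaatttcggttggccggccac
WDHD1: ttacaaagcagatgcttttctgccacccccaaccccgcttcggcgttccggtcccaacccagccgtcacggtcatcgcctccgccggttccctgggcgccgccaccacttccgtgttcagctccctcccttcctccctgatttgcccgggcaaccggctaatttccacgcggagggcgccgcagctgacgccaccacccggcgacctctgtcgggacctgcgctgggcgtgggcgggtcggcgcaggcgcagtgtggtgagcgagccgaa

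In the MCM2 and MCM6 promoters the matches overlap in pairs, a run that reads as E2F letters on both strands, once in MCM2 and at 2 places in MCM6. For MCM7 the sequence shown is that of 1 of its listed starts. The letters CCAAT, bound by NF-Y, stood in 29 of the 49 promoters (59.2%) against 39.7% of all genes with a promoter. The letters TTTGAA are the core of the CHR element of many genes of G2 phase and mitosis. They stood in 2 (4.08%) against 18.2% of all genes with a promoter. Matches of different motifs can share bases, and a match describes letters in a window and not a bound site. The 24 genes with E2F letters and the 25 without had median log2 fold changes, AURKA guide over control, of 0.071 and 0.075.

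AURKA (gene ID 6790) itself was at 189, 192 and 195 CPM (counts scaled to library size) in C1 to C3 and at 113, 119 and 113 in A1 to A3, a log2 fold change of -0.74 (SE 0.0488, edgeR quasi-likelihood adjusted p = 1.55e-06). Library totals lay between 17724174 and 18523594 expected counts, read numbers that RSEM estimates per gene. The labels call LP-1 a B lymphoblast. All 8 plasma cell markers were present, with SDC1 at 84.4 to 99.1 CPM and JCHAIN at 4813 to 5861 CPM, while the B cell markers MS4A1 (0 in every library) and PAX5 (at most 0.0533 CPM) were low. T cell, erythroid and collagen markers were at most 0.433 CPM, CD14 at most 0.108, LYZ at most 3.11, CD68 at most 3.46 and ACTA2 at most 5.65. C2 and C3 differed in a way tied to the GC content of transcripts: with genes split into 4 bins of like size by GC content, the median log2 deviation from the mean library in the bin of lowest GC was -0.12 in C2 and 0.07 in C3, and in the bin of highest GC it was 0.14 in C2 and -0.07 in C3. C1 leaned as C2 did, at -0.05 in the lowest bin and 0.06 in the highest. The medians of A1, A2 and A3 were -0.0038, 0.04 and 0.06 in the lowest bin and 0.01, -0.06 and -0.08 in the highest.

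Replication genes were well expressed in LP-1. In FPKM, the deposited counts per kilobase and per library size, 51 of the 55 were above the median of all tested genes in control, and 8 reached at least 100 FPKM. These 8 were POLD2, PCNA, TYMS, MCM4, RRM2, MCM7, MCM3 and MCM5. POLD2, a small subunit of DNA polymerase delta, was highest at 221.6 ± 14.2 FPKM (SD, n = 3), next to PCNA at 220.3 ± 13.7. At the low end stood POLE2, POLA1, the kinase CDC7, the checkpoint adaptor CLSPN and WDHD1, all under 10 FPKM, with CLSPN lowest at 6.45 ± 0.815 (SD, n = 3). In the order of the 55 control means, 10 of the 54 neighbouring pairs had ranges over the 3 libraries that did not overlap, among them PCNA over TYMS, TYMS over MCM4 and POLA1 over CDC7. The ranges of the other neighbours overlapped, which does not show that their levels were equal.

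Subunits of 1 complex were not always at like levels. The 6 subunits of the MCM2 to MCM7 ring, which come together 1 to 1, lay within a ratio of 1.77 in control, from MCM6 at 67.99 FPKM to MCM4 at 120.67 FPKM. The RPA subunits RPA1 to RPA3 lay within 2.16, ORC1 to ORC6 within 3.31, RFC1 to RFC5 within 3.75 and GINS1 to GINS4 within 4.58. The span was widest in polymerase delta, where POLD2 was 17.3 times POLD3. In AURKA-guide libraries the same ratios were 1.75 for MCM2 to MCM7, 2.23 for RPA, 3.67 for ORC, 3.34 for RFC, 4.26 for GINS and 14.8 for POLD1 to POLD3.

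**Figure D1:**
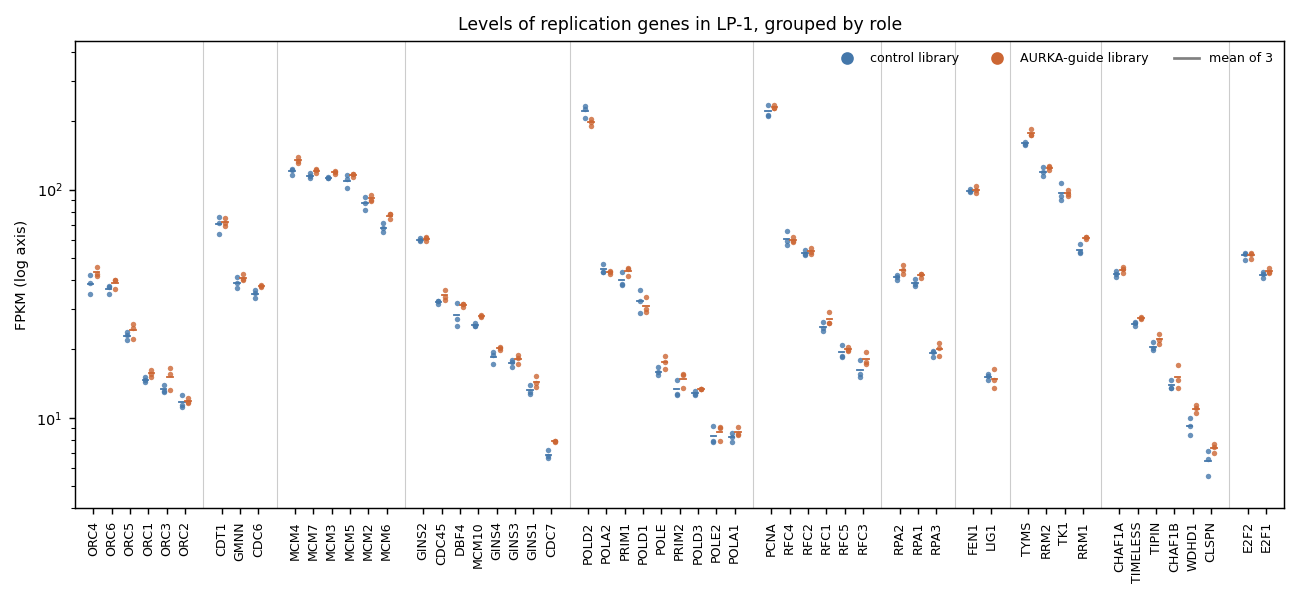
Level of each of the 55 genes in FPKM on a log axis, grouped by role, with 1 point for each control and AURKA-guide library. The MCM subunits lie close together, whereas POLD2 is 17.3 times POLD3 in control.

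Between the groups, no replication gene passed the test. At an adjusted p of 0.05 (edgeR quasi-likelihood, Benjamini-Hochberg over all genes tested) 0 of 55 were called, where 2.03% of all tested genes were called (0.959% higher and 1.07% lower in AURKA-guide libraries). At an unadjusted p under 0.05, 14 were higher and 1 was lower, where the shares over all genes were 7.54% and 8.58%. DESeq2 called 2 as higher, MCM6 (adjusted p = 0.0403) and MCM4 (adjusted p = 0.0430), where it called 1.06% of genes as higher. Fold changes of the 55 lay between -0.17 and 0.25 on the log2 scale with a median of 0.075, against -9.4e-05 over all genes, and 47 of the 55 were above 0, against 50% of all genes. The 95% interval of every one of the 55 lay within 0.5 of 0 on the log2 scale, as did 78.7% of the intervals of all genes. The highest upper bound was 0.384 (WDHD1) and the lowest lower bound -0.286 (POLD2).

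**Figure D2:**
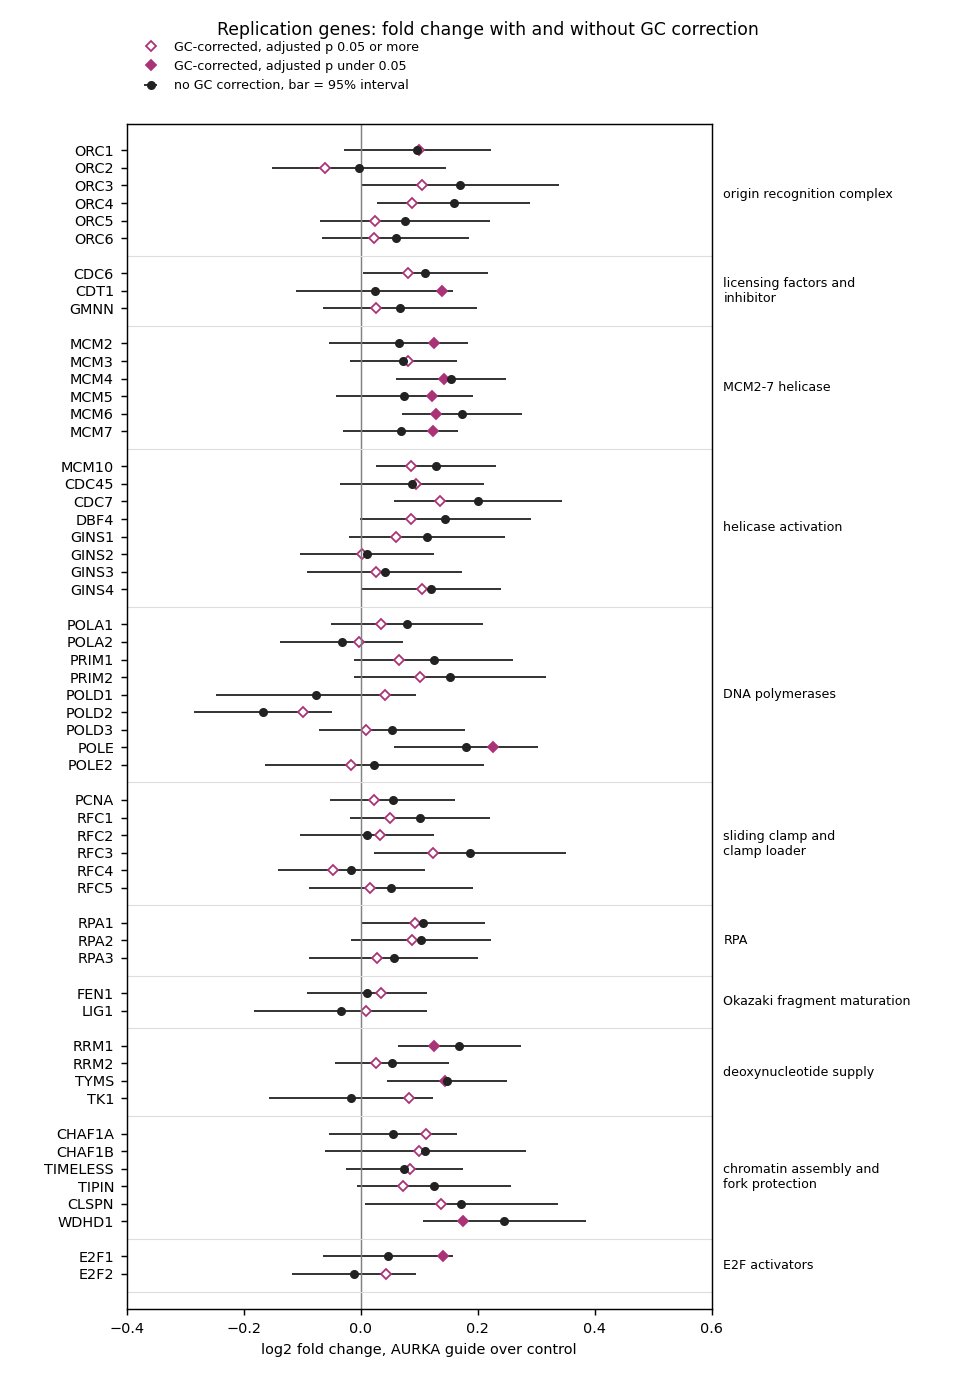
Log2 fold change of each of the 55 genes, AURKA guide over control, without GC correction (circles, with 95% interval) and with it (diamonds, filled where the adjusted p is under 0.05). Most points lie to the right of 0, and no circle lies beyond -0.17 or 0.25.

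By library, most of the 55 genes had their highest value in an AURKA-guide library and their lowest in a control library. The median log2 deviation of the 55 from their own means was -0.042, -0.057 and -0.028 in C1, C2 and C3 and 0.015, 0.046 and 0.040 in A1, A2 and A3. The highest library was A2 for 23 genes, A3 for 10 and A1 for 9, while C2 and C3 were highest for 6 each and C1 for 1. These counts were not taken over all genes. The groups did not overlap for 18 genes that were higher in AURKA-guide libraries, where 10.5% of all genes did so, and for 2 that were lower (POLA2 and POLD2), where 10.2% of all genes did. The spread within groups was small, with a median coefficient of variation of 3.90% in control and 3.65% in AURKA-guide libraries.

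**Figure D3:**
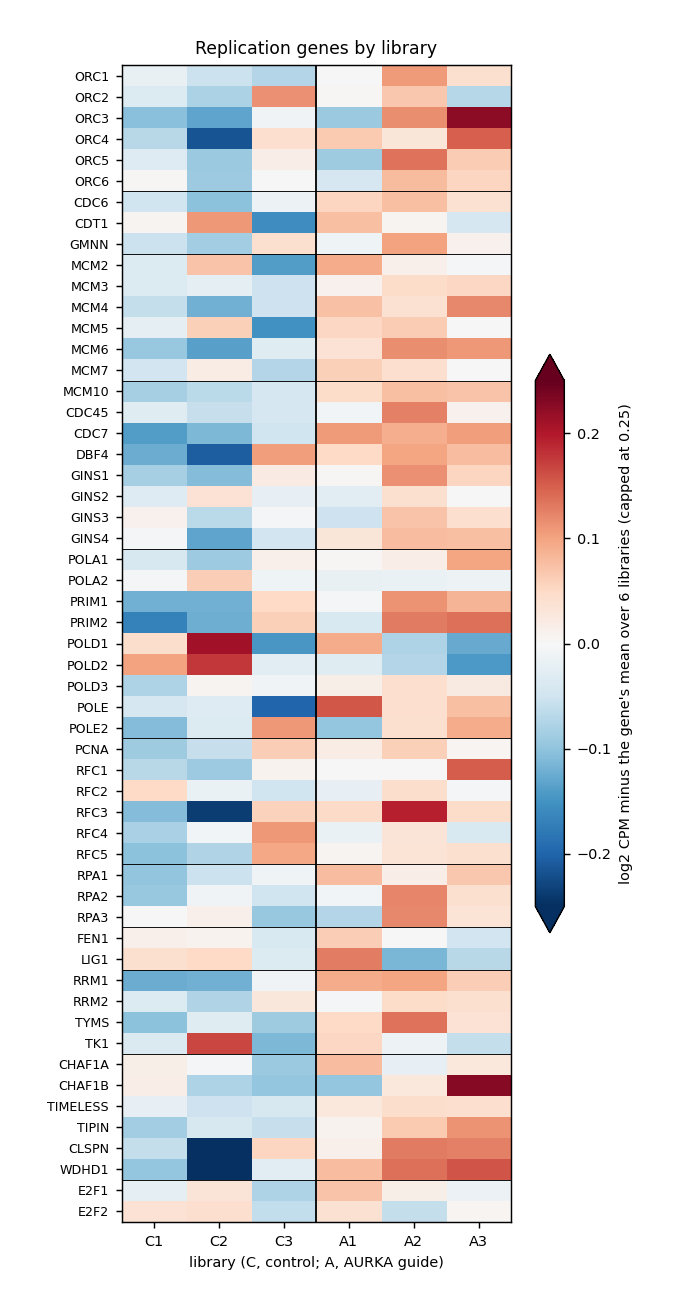
Log2 CPM of each of the 55 genes minus its mean over the 6 libraries, by library and role, with the colour scale capped at 0.25. Columns A2 and A3 are mostly above the mean of the gene, with 48 and 42 of 55 genes, and C1 and C2 mostly below, with 12 and 15 genes above. Of all 13138 tested genes, 6716 were above in A2, 6699 in A3, 6684 in C1 and 6401 in C2.

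Transcript GC content moved with the fold change. The longest coding transcripts of the 55 genes held between 37.7% and 65.0% GC with a median of 45.9%, against 48.5% over all tested genes. Across the 55 genes, which share the same 6 libraries and are not independent, GC content and log2 fold change had a Pearson r of -0.60 and a Spearman rho of -0.59. Over all genes r was -0.28. In the 4 bins of GC content, from lowest to highest, the median log2 fold change was 0.07, 0.03, -0.02 and -0.09 over all genes and 0.14, 0.07, 0.07 and 0.02 over the replication genes in them (13, 19, 14 and 9 genes).

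A correction for GC content was therefore fitted, which takes from each library its smooth trend with GC over all genes. It also removes any difference between the groups that is itself tied to GC content. After it 11 of the 55 genes were called as higher and 0 as lower, where 2.98% of all genes were called higher and 3.02% lower. The 11 were MCM2, MCM4, MCM5, MCM6, MCM7, CDT1, POLE, RRM1, TYMS, WDHD1 and E2F1. The median of the 55 was 0.083, and 50 were above 0. The rho between GC content and fold change over the 55 was then 0.05, a flattening that the correction is built to give. With 1 library left out in turn and the same correction, the number of the 55 called higher was 4 without C1, 9 without C2, 11 without C3, 5 without A1, 7 without A2 and 5 without A3, where 1.84%, 2.13%, 3.12%, 1.78%, 2.56% and 1.63% of genes were called higher. CDT1 and POLE were called in all 6 of these fits. By promoter, 7 of the 24 genes with E2F letters and 2 of the 25 without were called after the correction with all libraries, with corrected medians of 0.081 and 0.083, and the difference was not tested.

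**Figure D4:**
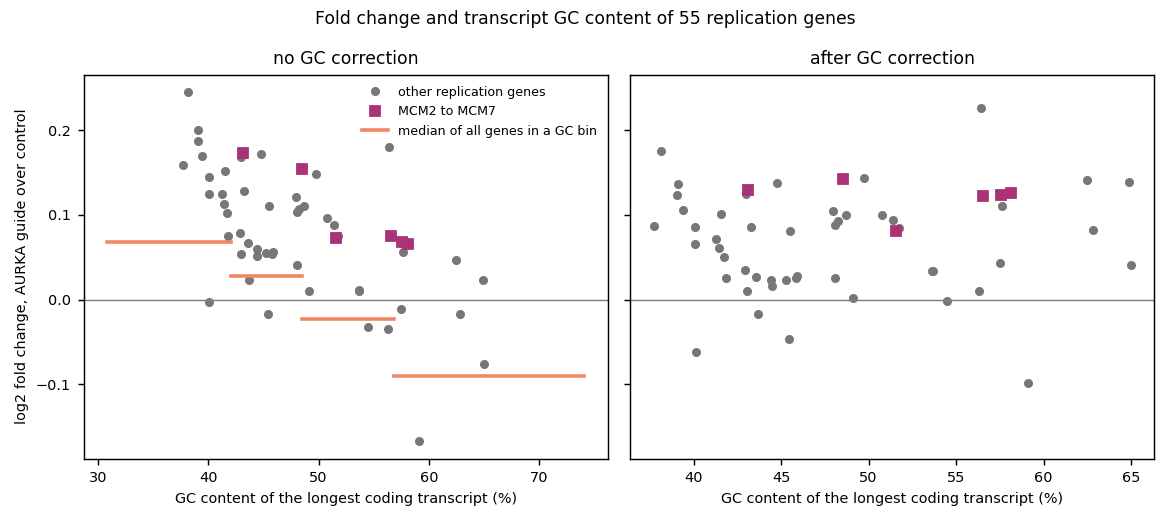
Log2 fold change against the GC content of the longest coding transcript for the 55 genes, before (left) and after (right) the correction. Squares are MCM2 to MCM7, and lines in the left panel are medians of all genes in 4 bins of GC content. Before correction the points fall from left to right (rho -0.59). After it, as the correction is built to do, they lie level (rho 0.05).

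Without the correction the count of calls turned on C3. Leaving it out gave 13 genes higher and 1 lower, where 6.81% of all genes were called higher and 8.50% lower. Leaving out any other library gave 0 of 55, where 0.738% (without A3) to 1.76% (without C2) of all genes were called in either direction. The 13 were ORC4, MCM4, MCM6, MCM10, CDC7, DBF4, PRIM1, PRIM2, RFC3, RRM1, TYMS, CLSPN and WDHD1, and the 1 lower was POLD2. Of these 14 genes, MCM4, MCM6, RRM1, TYMS and WDHD1 were also called after the GC correction.

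Of the origin recognition complex, the 6-subunit ATPase that marks origins, 5 of 6 genes were above 0 with a median log2 fold change of 0.086. ORC4 (gene ID 5000) had the smallest p. It was at 256, 231 and 276 CPM in C1 to C3 and at 281, 274 and 298 CPM in A1 to A3. C3 lay above A2, so the groups overlapped, and the log2 fold change of 0.16 (SE 0.0611, 95% interval 0.0284 to 0.289) was not called (edgeR adjusted p = 0.219). ORC1, the subunit whose level is regulated through the cell cycle, was at 0.10 (SE 0.0587) with groups that did not overlap, ORC3 at 0.17 (SE 0.0792), ORC5 at 0.08 (SE 0.0679), ORC6 at 0.06 (SE 0.0588) and ORC2 at -0.0030 (SE 0.0695). None of the 6 was called with the GC correction.

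The licensing factors CDC6 and CDT1 and their inhibitor geminin lay between 0.02 and 0.11 on the log2 scale, and none was called. CDC6 (gene ID 990), the ATPase that works with ORC to load the helicase, was at 106, 102 and 109 CPM in C1 to C3 and at 114, 116 and 113 CPM in A1 to A3. Every AURKA-guide library was above every control library, by 0.11 on the log2 scale (SE 0.050, 95% interval 0.00367 to 0.217, edgeR adjusted p = 0.290). CDT1 (gene ID 81620), which brings MCM to the origin and is the factor that geminin binds, was at 192, 206 and 172 CPM in C1 to C3 and at 201, 192 and 186 CPM in A1 to A3. The control libraries spanned the AURKA-guide ones, with C2 highest and C3 lowest, and the log2 fold change was 0.02 (SE 0.0626, 95% interval -0.11 to 0.157, adjusted p = 0.884). CDT1 has one of the most GC-rich transcripts of the 55, at 64.9%, and after the GC correction it was at 0.14 (adjusted p = 0.00749). GMNN was at 0.07 (SE 0.0615), and the ratio of CDT1 to GMNN in FPKM was 1.81 ± 0.242 in C1 to C3 and 1.75 ± 0.105 in A1 to A3 (SD, n = 3 each).

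All 6 subunits of the MCM2 to MCM7 helicase were above 0, from 0.07 to 0.17 with a median of 0.074, and none was called before the GC correction. MCM6 (gene ID 4175) was at 259, 252 and 271 CPM in C1 to C3 and at 283, 299.6 and 298 CPM in A1 to A3. The groups did not overlap, and the log2 fold change was 0.17 (SE 0.0481, 95% interval 0.0703 to 0.276, edgeR adjusted p = 0.0904). MCM4 (gene ID 4173) was at 594, 570.1 and 598 CPM in C1 to C3 and at 652, 637 and 673 CPM in A1 to A3. Its groups did not overlap either, and the log2 fold change was 0.15 (SE 0.0441, 95% interval 0.06 to 0.248, adjusted p = 0.101). MCM3 was at 366, 369 and 362 CPM in control and at 378, 387 and 389 CPM in AURKA-guide libraries, again without overlap, a log2 fold change of 0.07 (SE 0.0431, adjusted p = 0.426).

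The other MCM subunits overlapped between the groups through C2, which lay above the lowest AURKA-guide library. MCM2 (gene ID 4171) was at 307, 329.8 and 285 CPM in C1 to C3 and at 334, 317 and 313 CPM in A1 to A3, a log2 fold change of 0.07 (SE 0.0556, edgeR adjusted p = 0.590). MCM5 (gene ID 4174) was at 284, 301 and 260.2 CPM in control and at 299, 302 and 289 CPM in AURKA-guide libraries, a log2 fold change of 0.07 (SE 0.0547, adjusted p = 0.523). MCM7 (gene ID 4176) was at 288, 301 and 283 CPM in control and at 310.0, 307 and 298 CPM in AURKA-guide libraries, a log2 fold change of 0.07 (SE 0.0462, adjusted p = 0.490). In all 3 genes C2 was the highest control library and C3 the lowest, and their transcripts, at 58.1%, 56.6% and 57.6% GC, were richer in GC than those of MCM4 (48.5%) and MCM6 (43.1%).

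With the GC correction the 6 MCM genes drew together, and 5 of them were called. The corrected log2 fold changes were 0.13 for MCM2 (adjusted p = 0.0160), 0.14 for MCM4 (adjusted p = 0.00590), 0.12 for MCM5 (adjusted p = 0.0278), 0.13 for MCM6 (adjusted p = 0.00946) and 0.12 for MCM7 (adjusted p = 0.0155), and 0.08 for MCM3 (adjusted p = 0.105), which was not called. The calls changed when single libraries were left out of the corrected fit. MCM4 was called in 5 of 6 such fits and not without A3 (adjusted p = 0.0646). MCM6 was not called without C1 (0.0509) or A3 (0.0512), and MCM2 not without C1 (0.0785) or A1 (0.10). MCM7 was called only without C2 or C3 (adjusted p up to 0.0910 otherwise) and MCM5 only without C2 (up to 0.0971 otherwise).

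**Figure D5:**
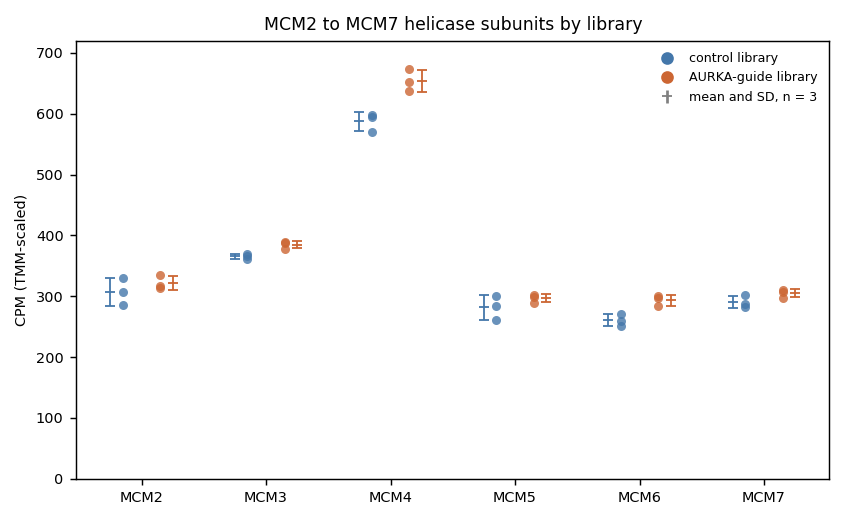
CPM of MCM2 to MCM7 in each library, with the mean and SD of each group (n = 3). The AURKA-guide points of MCM3, MCM4 and MCM6 all lie above the control points, and those of MCM2, MCM5 and MCM7 overlap them.

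Of the genes that fire the loaded helicase, all 8 were above 0, with a median of 0.117. CDC7 (gene ID 8317), the kinase that phosphorylates MCM, was at 21.5, 21.9 and 22.8 CPM in C1 to C3 and at 25.4, 25.2 and 25.4 CPM in A1 to A3. The groups did not overlap, and the log2 fold change was 0.20 (SE 0.0674, 95% interval 0.0565 to 0.344, edgeR adjusted p = 0.162). Its activator DBF4 was at 0.14 (SE 0.0685), with overlapping groups. MCM10, CDC45 and GINS4 did not overlap between the groups, at 0.13 (SE 0.0478), 0.09 (SE 0.0574) and 0.12 (SE 0.0555), whereas GINS1 (0.11, SE 0.0625), GINS2 (0.01, SE 0.0537) and GINS3 (0.04, SE 0.0623) did. None of the 8 was called with the GC correction, and their median was 0.086.

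The polymerase subunits lay on both sides of 0, with 6 of 9 above it and a median of 0.053. POLE (gene ID 5426), the catalytic subunit of polymerase epsilon, which copies the leading strand, was at 119.8, 121 and 107 CPM in C1 to C3 and at 137, 127 and 129.9 CPM in A1 to A3. The groups did not overlap, and the log2 fold change was 0.18 (SE 0.0575, 95% interval 0.0573 to 0.303, edgeR adjusted p = 0.143). The GC-corrected value was 0.23 (SE 0.0357, adjusted p = 0.000599), the smallest corrected p among the 55. The small subunit POLE2 was at 0.02 (SE 0.0878, adjusted p = 0.921).

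POLD2 (gene ID 5425), the regulatory subunit with the highest level of the 55, was the lowest in fold change. It was at 374, 395 and 343 CPM in C1 to C3 and at 342, 332 and 316 CPM in A1 to A3. C3 lay just above A1 and the groups did not overlap, with a log2 fold change of -0.17 (SE 0.0554, 95% interval -0.286 to -0.049, edgeR adjusted p = 0.154). Without C3 it was -0.22 (adjusted p = 0.00332), and after the GC correction -0.10 (adjusted p = 0.0545). POLD1, the catalytic subunit, was at -0.08 (SE 0.0800) and POLD3 at 0.05 (SE 0.0586). Of the polymerase alpha and primase complex, which lays down primers, POLA1 was at 0.08 (SE 0.0605), POLA2 at -0.03 (SE 0.0490), PRIM1 at 0.13 (SE 0.0636) and PRIM2 at 0.15 (SE 0.0769).

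The clamp PCNA, which tethers polymerases to DNA, was at 277, 283 and 307 CPM in C1 to C3 and at 298, 307 and 295 CPM in A1 to A3, with a log2 fold change of 0.05 (SE 0.0501, edgeR adjusted p = 0.621). Of the clamp loader genes RFC3 (gene ID 5983) had the smallest p, at 38.8, 35.5 and 43.5 CPM in C1 to C3 and 43.2, 47.8 and 43.1 CPM in A1 to A3. C3 lay above A1 and A3, and the log2 fold change was 0.19 (SE 0.0769, 95% interval 0.0230 to 0.352, adjusted p = 0.248). The other loader subunits lay between -0.02 (RFC4, SE 0.0588) and 0.10 (RFC1, SE 0.0562). RPA1 (gene ID 6117), the large subunit of the protein that coats single-stranded DNA, was at 133, 137 and 141 CPM in control and at 149.8, 144 and 149 CPM in AURKA-guide libraries. These groups did not overlap, and the log2 fold change was 0.11 (SE 0.0492, 95% interval 0.00186 to 0.212, adjusted p = 0.300). RPA2 was at 0.10 (SE 0.0561) and RPA3 at 0.06 (SE 0.0677).

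The enzymes that finish Okazaki fragments differed little. The ligase LIG1 (gene ID 3978) was at 51.2, 51.6 and 48.7 CPM in C1 to C3 and at 54.4, 46.0 and 47.5 CPM in A1 to A3. A1 was the highest and A2 the lowest of the 6 libraries, and the log2 fold change was -0.03 (SE 0.0692, 95% interval -0.182 to 0.113, edgeR adjusted p = 0.841). The flap nuclease FEN1 was at 0.01 (SE 0.0478).

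Of the 4 genes of deoxynucleotide supply, RRM1 and TYMS were higher in every AURKA-guide library and RRM2 and TK1 were not. RRM1 (gene ID 6240), the large subunit of ribonucleotide reductase, was at 173, 174 and 188 CPM in C1 to C3 and at 202, 202 and 197 CPM in A1 to A3, a log2 fold change of 0.17 (SE 0.0494, 95% interval 0.0633 to 0.274, edgeR adjusted p = 0.110). TYMS (gene ID 7298), which makes thymidylate, was at 247, 259 and 249 CPM in control and at 274, 291 and 271 CPM in AURKA-guide libraries, a log2 fold change of 0.15 (SE 0.0479, 95% interval 0.0457 to 0.25, adjusted p = 0.148). After the GC correction both were called, RRM1 at 0.13 (adjusted p = 0.0272) and TYMS at 0.14 (adjusted p = 0.0148). RRM1 lost that call without C1 (0.137), A1 (0.160) or A2 (0.0717), and TYMS without C1 (0.0933) or A2 (0.0761).

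The small reductase subunit RRM2, the one that limits the enzyme in S phase, was at 0.05 (SE 0.0457, edgeR adjusted p = 0.588), and the thymidine kinase TK1 at -0.02 (SE 0.0657, adjusted p = 0.922). The ratio of RRM2 to RRM1 in FPKM was 2.25, 2.18 and 2.17 in C1 to C3 and 1.97, 2.04 and 2.08 in A1 to A3. All 3 AURKA-guide values were below all 3 control values, with means of 2.20 ± 0.0455 and 2.03 ± 0.0550 (SD, n = 3 each). No test was run on this ratio. The ratios of CDT1 to GMNN, CHAF1A to CHAF1B, DBF4 to CDC7, TIMELESS to TIPIN and E2F2 to E2F1 were also taken. In each of these the groups overlapped. Counting both directions, the CPM of the groups did not overlap for 20.8% of all tested genes. That is a share of single genes, and none was taken over FPKM ratios of gene pairs.

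Among the genes that protect the fork and package new DNA all 6 were above 0, with a median of 0.118. WDHD1 (gene ID 11169), also known as AND-1, which links the helicase to polymerase alpha, was at 51.1, 46.0 and 53.7 CPM in C1 to C3 and at 57.7, 60.2 and 61.0 CPM in A1 to A3. The groups did not overlap, and the log2 fold change was 0.25 (SE 0.0651, 95% interval 0.106 to 0.384), with the smallest adjusted p of the 55 (edgeR adjusted p = 0.0746). After the GC correction it was 0.18 (adjusted p = 0.0139), and in the corrected fits without C2, A1 or A3 that call was lost (adjusted p = 0.0579, 0.0528 and 0.0618). CLSPN (gene ID 63967), which passes the replication stress signal to the checkpoint kinase CHEK1, was at 39.2, 34.1 and 42.4 CPM in control and at 41.2, 44.7 and 44.6 CPM in AURKA-guide libraries, with C3 above A1. Its log2 fold change was 0.17 (SE 0.0770, 95% interval 0.00761 to 0.337, edgeR adjusted p = 0.287). The fork protection partners TIMELESS and TIPIN did not overlap between the groups, at 0.07 (SE 0.0467) and 0.13 (SE 0.0618), and the chromatin assembly subunits CHAF1A and CHAF1B were at 0.06 (SE 0.0512) and 0.11 (SE 0.0803).

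The E2F activators themselves were nearly level. E2F1 (gene ID 1869) was at 115, 120.0 and 111 CPM in C1 to C3 and at 123, 118 and 116 CPM in A1 to A3. The groups overlapped, with a log2 fold change of 0.05 (SE 0.0519, 95% interval -0.0641 to 0.158, edgeR adjusted p = 0.694). After the GC correction E2F1, whose transcript holds 62.5% GC, was at 0.14 (adjusted p = 0.0227), a call that held in the fit without C3 and in none of the other 5 (up to 0.105 without C2). E2F2 was at -0.01 (SE 0.0496). Without C2, the uncorrected fold change of CDT1 was 0.09 and that of E2F1 0.08, and without C3 they were -0.05 and 0.02.

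Of 55 further genes of replication and S phase, among them origin firing helpers, clamp loader variants, nucleotide enzymes, other E2F and RB family members and S phase cyclins, 0 were called. Their median log2 fold change was 0.052 and 38 were above 0. Among those with the smallest p were the replication timing factor RIF1 at 0.19 (SE 0.0589, edgeR adjusted p = 0.131) and TOPBP1, which helps fire origins, at 0.15 (SE 0.0485, adjusted p = 0.154). After the GC correction 2 of these 55 were called higher, among them the fork repair factor TONSL (adjusted p = 0.0147), near the 2.98% of all genes, and the median was 0.027. Without C3, 9 were called higher and 4 lower, where the shares over all genes were 6.81% and 8.50%. For comparison, of 30 genes of G2 phase and mitosis, in which Aurora A works, 6 were called higher and 0 lower, with a median of 0.17, where 0.959% of all genes were called higher. That count was 2 without C1, 4 without C2, 21 without C3, 3 without A1, 3 without A2 and 1 without A3. In the same order, 0.414%, 0.909%, 6.81%, 0.557%, 0.406% and 0.399% of all genes were called higher. With the GC correction 15 of the 30 were called higher, where 2.98% of all genes were. With a library also left out the count ran from 9 (without A1 or A3) to 16 (without C3). The shares of all genes called higher were then 1.78% without A1, 1.63% without A3 and 3.12% without C3. The difference between these lists was not tested.

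At the transcript level no replication gene passed the edgeR test. The transcript table held 266 transcripts of the 55 genes, of which 201 were tested and 0 called, where 0.00227% of all tested transcripts were called. At an unadjusted p under 0.05, 8 of the 201 were higher and 4 lower. The share of all transcripts at that threshold was not taken, so these counts cannot be set against it. DESeq2 called 4, where it called 1.51% of transcripts. RSEM divides reads among similar transcripts, so minor ones are estimates that can fall to 0. The 4 called by DESeq2 were the main transcripts of MCM4 (NM_182746.2) and MCM6 (NM_005915.5) and minor transcripts of DBF4 (NM_001318062.1) and RFC2 (XR_927506.3). The MCM6 transcript was the only one of its gene to hold reads and had 4788, 4406 and 5042 expected counts in C1 to C3 and 5182, 5497 and 5495 in A1 to A3. The DBF4 transcript had 33.2, 58.4 and 37.0 expected counts in C1 to C3 and was listed at 0 in A1 to A3, with a mean share of 2.20% of its gene in control. The RFC2 transcript had 36.6, 16.8 and 13.6 expected counts in control and was likewise listed at 0 in all AURKA-guide libraries.

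The authors' deposited table of transcripts gave q under 0.05 to 4 of 262 transcripts of these genes for the AURKA guide. Over all transcripts it did so for 1214 of 78198, a like share. They were the main MCM4 transcript at 0.16 on the log2 scale (q = 0.00211), the main MCM6 transcript at 0.17 (q = 0.0463), the DBF4 transcript at -7.88 (q = 0.000631) and a minor RPA1 transcript (NM_001355120.1) that holds reads in A1 alone. The authors' deposited table also compares a guide against NSD2, whose libraries were not analysed here, with a control of the same name. For that guide it gave q under 0.05 to 4 of 255, out of 1394 of 78311 in all, again a like share. Among them was the main RRM2 transcript (NM_001034.3), at -0.21 with the NSD2 guide (q = 0.000817) and at 0.05 with the AURKA guide. The other 3 were minor transcripts of MCM2, CDC7 and RPA2. In the authors' deposited table, the main MCM4 and MCM6 transcripts were at 0.01 and 0.06 with the NSD2 guide. None of the 55 genes was among the 229 in the authors' deposited gene table. Counts were deposited for 17579 genes, so only a small share of all genes is among the 229.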

How the data were processed

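Per the labels' protocols, RNA was extracted with Trizol and libraries followed the BGISEQ500 protocol. The build hg19 and the tools RSEM, Bowtie2 and BWA are listed in the submitters' processing notes, while strand handling, settings and versions were not given in the sources. Expected counts, estimated by RSEM per gene and per transcript, were deposited by the authors, and 44.8% of the gene values were not whole. FPKM values, scaled by the authors to length and library size, stand beside them per the file headers. The authors' deposited comparison tables hold log2 fold changes with p-values and q-values, which the headers attribute to DESeq2.

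The expected counts, rounded to whole numbers, were compared by edgeR 4.0.16 under R 4.3.3 (filterByExpr, TMM, quasi-likelihood F test, Benjamini-Hochberg adjustment over all genes tested, threshold 0.05), without a block. SEs were derived from the F statistic. CPM used TMM-scaled library sizes. For the GC correction, each library's deviation in log2 CPM (prior count 2) was fitted by a natural spline with 5 degrees of freedom on the GC content of the longest coding transcript in GENCODE release 29 and used as an offset. That annotation and the RefSeq promoters belong to another build than hg19 and were matched by gene ID or symbol. GC content was known for all 55 genes and for 12811 of the tested genes; the others received the median. Levels between genes were compared in FPKM alone. Promoter sequences are RefSeq, GRCh38.p14, and 6 of the 55 genes had none matched.

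Alternatives were DESeq2 1.42.0, other scalings and filters, limma 3.58.1 on log2(FPKM + 1) or log2(FPKM + 0.1) with a filter of 0.5 FPKM in 3 libraries or none, the replicate number as a block, and each library left out; leaving out libraries within the GC correction was chosen after seeing the data. Replicates differed by more than counting noise: between libraries of 1 group the mean chi-square of genes holding 20 or more counts was 2.24 to 10.5, highest between C2 and C3. Reads carried no stated molecular identifiers, so they need not be independent molecules. Genes given values in every library were, in each role, the one with the smallest p, those called before or after the GC correction, and those with the highest and lowest control FPKM; MCM3, PCNA and RRM2 were added after their values were seen. The genes and lists were chosen with earlier results of these data known. Some genes of the further replication list and of the marker lists are not reported here.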

Additional observations from a re-analysis of the deposited data

How the results depend on the processing

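Of the 55 genes, 37 kept the sign of their log2 fold change in all 23 alternatives (6 of these chosen after seeing the data), and 18 changed it in at least 1. Genes called over the whole table were 126 higher and 141 lower. Leaving out 1 library, with or without the GC correction, gave 53 to 905 higher and 45 to 1129 lower, with the highest numbers without C3. The GC correction gave 392 and 397, GC correction with the replicate block 430 and 453, and limma on unfiltered FPKM 36 and 31. A mean of at least 10 CPM gave 90 lower. DESeq2 called 267 genes as edgeR did, and 214 of them were the same genes. Of the replication genes 0 were called in either direction. Left-out libraries gave 0 to 13 higher and 0 to 1 lower, the replicate block 1 higher (WDHD1, edgeR adjusted p = 0.0381; 1.35% of all genes higher), DESeq2 2 higher, the GC correction 11 higher, and GC correction with the block 12 higher and 1 lower, which was POLD2 (edgeR adjusted p = 0.0374; 3.27% and 3.45% of all genes). Their median of 0.075 ranged from 0.064 to 0.094 over left-out libraries. Of the 55 further replication genes, 0 to 9 were called higher and 0 to 4 lower with libraries left out, 2 higher after the GC correction, and 3 higher and 1 lower with the block added. Their median of 0.052 ranged from 0.022 to 0.056 with libraries left out and was 0.027 after the GC correction and 0.028 with the block added. DESeq2 called 4 transcripts of the replication genes where edgeR called 0.

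Signs changed as follows, with the range over left-out libraries first. ORC2 (-0.00304) ran from -0.091 to 0.053 and was 0.0017 with library size alone and 0.015, 0.016 and 0.015 in the limma fits with pseudocounts 1 and 0.1 and without a filter. POLD1 (-0.076) ran from -0.17 to 0.065 and was 0.041 after the GC correction without and with the block, LIG1 (-0.034) from -0.11 to 0.055 and 0.0097 and 0.0089, TK1 (-0.017) from -0.078 to 0.11 and 0.083 and 0.083, and POLE2 (0.023) from -0.063 to 0.083 and -0.017 and -0.017. E2F2 (-0.011) ran from -0.047 to 0.067, was 0.043 and 0.043 after those corrections, and 0.00304, 0.0031 and 0.00304 in the limma fits. With libraries left out, ORC5 ran from -0.021 to 0.13, CDT1 from -0.047 to 0.14, GMNN from -0.0038 to 0.10, GINS2 from -0.015 to 0.033, POLA2 from -0.049 to 0.010, POLD3 from -0.013 to 0.071, PCNA from -0.00636 to 0.098, RFC2 from -0.015 to 0.056, RFC4 from -0.090 to 0.034, RFC5 from -0.022 to 0.11, RPA3 from -0.022 to 0.10 and FEN1 from -0.019 to 0.056. The causes were not tested.

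The replicate numbers shared between the groups gave no clear sign of pairing. Same-numbered libraries had correlations of 0.051, -0.10 and 0.095 between their deviations from the group means. C2 correlated best with A1 (0.17) and C3 with A2 (0.13). Deviations from a mean of 3 libraries depend on one another, so these correlations cannot exclude a pairing. With the replicate number as a block edgeR called 385 genes, against 267 without.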
